A study of Mus musculus with 12 samples.

Results

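The comparison described here is the difference between a pair of mouse embryonic stem (ES) cell lines in their answer to 72 h of mTOR inhibition. For every gene the change from 0 h to 72 h in the DNMT3ABKO line was set against the change over the same time in the KH line, on the scale log2(TPM + 1), where TPM (transcript abundance scaled to a fixed library total) corrects for transcript length. The comparison rests on 8 of the 12 libraries of the series, 2 for each line at each time, and it was made for the 15615 of 54446 gene identifiers that averaged at least 1 TPM over those 8 libraries. KH is the wild-type line (labelled E14 KH), and DNMT3ABKO was made without Dnmt3a and Dnmt3b, the enzymes of de novo DNA methylation. Both lines were treated with INK128, a catalytic mTOR inhibitor, and sampled at 0 h, 72 h and 144 h. Each genotype is represented by 1 line, and no untreated culture was sampled at 72 h. The methods describe independent repeats of each experiment in general terms, but no source used here says which cultures the 2 libraries of a group came from, so that p-values may measure technical spread in part. The methods place wild-type KH2 and Dnmt3a/b-deficient cells on mitomycin-treated feeder cells and E14-background cells on gelatin alone. The labels call both lines E14, so that growth on feeders is uncertain from the sources, although fibroblast markers were measured in every library. Cells were sorted before RNA was extracted. Differences of genotype therefore cannot be told apart from other differences between the lines, nor the effect of the drug from time in culture.

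mTOR couples nutrient supply to growth, and its inhibition puts mouse ES cells and blastocysts into a reversible dormant state that resembles embryonic diapause, with low biosynthesis and retained pluripotency. Dnmt3a and Dnmt3b place new methyl groups on cytosines followed by guanine (CG sites), and methylation of promoters keeps germline genes and genes of the earliest embryo silent in ES cells. Cultures of ES cells hold a small fraction of cells in a 2-cell-like state, which express genes of the 2-cell embryo such as those of the Zscan4 cluster under the transcription factor Dux. The naive state of pluripotency is held by factors such as Nanog, Esrrb, Prdm14 and Tfcp2l1, and is left through a formative stage marked by Fgf5 and Pou3f1.

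Dnmt3b was at 255 and 258 TPM in the KH libraries at 0 h and at 181 and 173 TPM at 72 h, against 26.2 and 27.5 TPM and then 25.9 and 24.1 TPM in DNMT3ABKO. Dnmt3a was at 54.7 to 62.7 TPM in the 4 KH libraries and at 7.35 to 14.4 TPM in the 4 DNMT3ABKO libraries. The groups did not overlap for either gene, and an exact permutation test of the mean line difference within times gave p = 0.0556 for both, the smallest p that its 36 assignments allow. The ES cell factor Pou5f1 was at 786 to 1132 TPM in all 8 libraries. The summed level of 41 fibroblast (feeder) markers fell between the times in both lines, from 6843 and 7636 to 3420 and 3356 TPM in KH and from 7434 and 8133 to 2855 and 2661 TPM in DNMT3ABKO, and in bulk libraries fewer cells of a type and less RNA per cell cannot be told apart. DNMT3ABKO replicate 1 at 0 h stood apart: its mitochondrial mRNAs summed to 6721 TPM against 16124 to 26540 TPM in the other 7 libraries, and the correlation of log2 values with its replicate was 0.985 against 0.993 to 0.996 in the other groups. Over 30 gene lists described below, the median difference in response shifted by -0.20 to 0.03 on the log2 scale without this library and by -0.10 to 0.20 without its replicate, and the median over all genes went from 0.02 to -0.06 and 0.09, so that list medians near 0 have no settled sign.

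At an adjusted p under 0.05, limma (moderated tests over all genes, Benjamini-Hochberg adjustment, used for every adjusted p below) called a difference in the 72 h response for 286 of 15615 genes. The response was higher in DNMT3ABKO for 189 genes (1.21% of those tested) and lower for 97 (0.621%). With libraries scaled by median ratios 345 were higher and 284 lower, and the share called higher went from 66.1% to 54.8%. An unadjusted p under 0.05 was found for 2180 genes. The number of calls depended on single libraries: it was 564 without DNMT3ABKO replicate 1 at 0 h (269 higher, 295 lower), 1814 without its replicate 2 (1412 higher, 402 lower), 88 and 40 without KH replicate 1 or 2 at 0 h, 14 and 3 without KH replicate 1 or 2 at 72 h, and 3 and 2 without DNMT3ABKO replicate 1 or 2 at 72 h. Which direction held more calls therefore changed without the library that stood apart. All 286 genes kept the sign of their difference in each of these 8 fits. They were called for a large difference against the spread of these same libraries, so a change of sign was hardly possible. With the replicate number as a block, 180 genes were called (125 higher, 55 lower). The methods say that the time points of a replicate were handled in parallel, which would make the number a batch, but same-numbered libraries did not deviate together, and genes that lose their call under the block are named with their adjusted p below. The response itself was much wider than its difference: 6572 genes were called between 0 h and 72 h in KH and 7783 in DNMT3ABKO, and the 2 sets of log2 changes, which share no library, correlated across genes with r = 0.83 (a description over genes, which are not independent). The called differences had a median absolute size of 1.13 on the log2 scale, and the smallest was 0.54. Over all genes tested the median difference was 0.02.

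Among the 189 genes with a higher response in DNMT3ABKO, 110 were called as changed between 0 h and 72 h in DNMT3ABKO alone, 60 changed in the same direction in both lines, 10 in KH alone and 9 in opposite directions. Among the 97 with a lower response, 40 changed in the same direction in both lines, 30 in DNMT3ABKO alone, 14 in opposite directions and 13 in KH alone. The interaction itself carried the test, so a gene counted under "alone" may also have moved in the other line without passing. Of the 110, 67 belong to a class of 76 genes described below (widened, higher). In KH 68 of the 76 were under 1 TPM at both times, where a change on the log2(TPM + 1) scale could hardly be called. In each of the 286 genes the changes between single 0 h and 72 h libraries of DNMT3ABKO, 4 in all, lay wholly beyond the 4 changes in KH, as they did for 29.0% of all genes tested. The 286 were chosen by a test on these same libraries, so their separation was nearly assured and adds nothing to the calls.

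The 286 genes were then placed by whether the lines already differed at 0 h. At 0 h, 451 genes were called higher (2.89%) and 301 lower (1.93%) in DNMT3ABKO, and at 72 h 952 were called higher (6.1%) and 949 lower (6.08%). Both splits moved with single libraries. Leaving out DNMT3ABKO replicate 1 at 0 h gave 685 higher and 305 lower calls for the 0 h difference, and 1600 higher against 2160 lower calls for the 72 h difference. Leaving out its replicate 2 gave 1001 higher against 3129 lower calls, and 1597 against 2156, in the same order. Without 1 of the 72 h libraries the 72 h calls numbered 525 to 558, of which 71.1% to 76.0% were higher. A replicate block gave 217 higher against 95 lower calls for the 0 h difference, and 414 against 171 for the 72 h difference. A difference in response was counted as arisen where the lines differed at 72 h and were not called different at 0 h, as widened where a 0 h difference had grown in the same direction, as narrowed where it had shrunk or was no longer called, and as crossed where it had turned over. By this reading 130 of the 286 differences arose under treatment (67 higher, 63 lower), 79 widened (76 higher, 3 lower), 60 narrowed (39 higher, 21 lower) and 16 crossed (6 higher, 10 lower), and 1 gene, Rxrg, was called at neither time. For 127 of the 130 genes that arose, the 95% interval of the 0 h difference lay inside -1 to 1 on the log2 scale. The 0 h libraries enter both the placing and, with opposite sign, the difference in response, so that error in them touches both. The fit also pools 1 spread per gene over the groups. The replicate spread on the log2 scale was 0.273 in DNMT3ABKO and 0.178 in KH at 0 h, and 0.140 and 0.133 at 72 h. Calls at 0 h may therefore come too easily and calls at 72 h too rarely, which touches every class. Without DNMT3ABKO replicate 1 at 0 h, 278 of the 286 genes were still called and 115 of the 130, 76 of the 79, 43 of the 60 and 15 of the 16 kept their class. The class sizes were less steady. With library weights, which were lowest for the 0 h libraries of DNMT3ABKO (0.303 each), 207 genes were called. Of these 127 arose, 43 widened, 20 narrowed and 14 crossed. With a pseudocount of 0.1 TPM, 61 arose, 22 widened, 28 narrowed and 16 crossed, and 20 of the 76 widened, higher genes were still called. Without DNMT3ABKO replicate 2 at 0 h, 549 arose, 139 widened, 903 narrowed and 164 crossed.

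**Figure D1:**
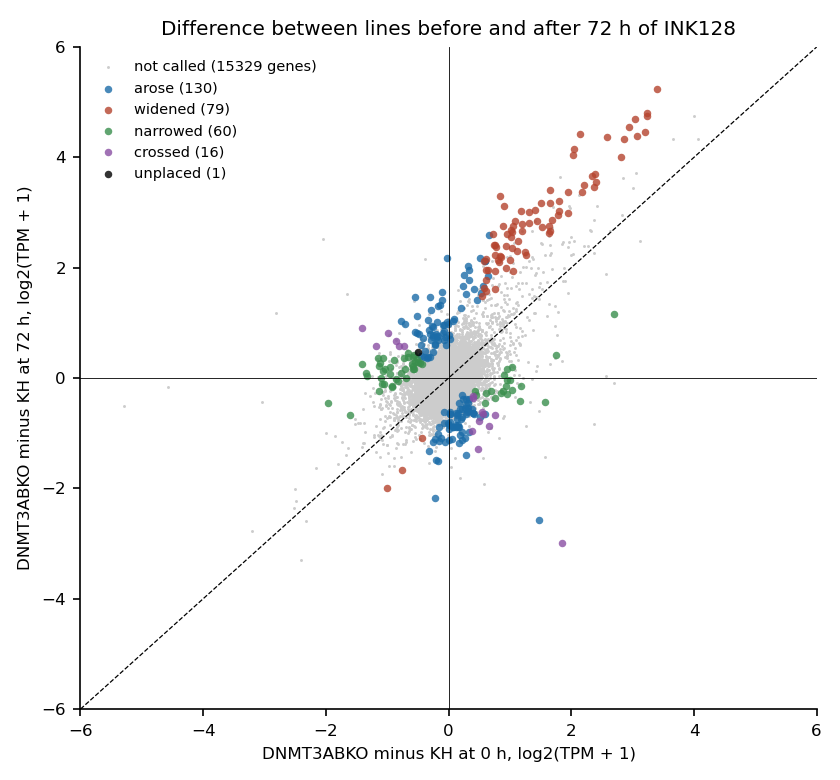
Line difference (DNMT3ABKO minus KH, log2(TPM + 1), mean of 2 libraries each) at 0 h on the x axis and at 72 h on the y axis, 1 point per gene tested, with the 286 called genes coloured by class. The distance from the dashed diagonal is the difference in response. The 76 widened, higher genes run along the upper right above the diagonal, and the 130 that arose sit near 0 on the x axis.

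Of the 451 genes higher in DNMT3ABKO at 0 h, 321 were called higher at 72 h too, 120 were not called and 10 were called lower. Of the 301 genes lower at 0 h, 117 were called lower at 72 h, 178 were not called and 6 were called higher. A difference in response was called for 107 of the 451 and for 48 of the 301, sets that rest on the 0 h split above and move with its libraries. The median line difference of the 451 was 0.88 at 0 h and 0.94 at 72 h on the log2 scale, and that of the 301 was -0.70 and -0.32.

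The widened class held genes of the 2-cell-like state, germline genes and many genes without a given name, which were present in DNMT3ABKO and nearly absent in KH. The mean of KH was under 1 TPM at both times for 68 of the 76 widened, higher genes, 67 of the 76 changed in DNMT3ABKO alone, and in DNMT3ABKO the level at 72 h was a median of 3.59 times that at 0 h (range 1.36 to 9.43). Of these 76 genes 14 belong to a list of 24 genes of the 2-cell-like state and 50 carry predicted or clone names. Of the 24 listed genes 17 passed the filter on low values. All but Eif1a, 16 of the 17, were under 1 TPM in KH at both times and passed through the level in DNMT3ABKO. The filter averages over the 72 h libraries of DNMT3ABKO too, so it favours both a higher level and a higher response there. The 14 calls among the 17 are therefore given as a description, from which nothing is read about the list.

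Zscan4f, a zinc finger and SCAN domain protein expressed in bursts in 2-cell-like cells and linked to telomere maintenance, was at 0.672 and 0.986 TPM in the KH libraries at 0 h and at 0.216 and 0.305 TPM at 72 h. In DNMT3ABKO it was at 16.1 and 20.5 TPM at 0 h and at 47.5 and 45.7 TPM at 72 h. It fell in KH and rose in DNMT3ABKO, and no groups overlapped, giving a difference in response of 1.84 ± 0.20 (SE, adjusted p = 0.00839) on top of a 0 h difference of 3.4. At 144 h it reached 222 and 232 TPM in DNMT3ABKO against 2.64 and 2.37 TPM in KH. Zscan4c, a close copy, had a difference of 1.51 ± 0.17 (adjusted p = 0.00881), and Zscan4-ps2, a copy named as a pseudogene but annotated as protein coding, 1.66 ± 0.19 (adjusted p = 0.00887).

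Reads of the Zscan4 copies cannot be assigned to single genes with certainty. The upstream sequences of Zscan4c and Zscan4f are shown because their likeness makes this plain and because they hold few CG sites. Aligned at the offset with most matches, 226 of 227 bases were identical. Both are the 250 bases before the RefSeq start (build GRCm38.p6, the mm10 assembly), 5′ to 3′ on the plus strand, at chr7:11005495-11005744 and chr7:11397665-11397914, with each CG in capitals and 3 CG sites in each.
Zscan4c: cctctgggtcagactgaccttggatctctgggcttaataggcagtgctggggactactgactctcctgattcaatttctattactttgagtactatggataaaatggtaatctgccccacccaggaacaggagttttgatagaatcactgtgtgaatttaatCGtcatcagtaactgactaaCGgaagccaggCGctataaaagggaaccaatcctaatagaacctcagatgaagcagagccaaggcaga
Zscan4f: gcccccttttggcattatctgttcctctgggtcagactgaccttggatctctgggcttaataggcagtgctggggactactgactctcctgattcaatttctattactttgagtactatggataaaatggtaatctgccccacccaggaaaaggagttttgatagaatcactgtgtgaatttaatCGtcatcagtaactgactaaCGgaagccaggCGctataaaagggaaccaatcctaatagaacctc
All 9 annotated Zscan4 genes and copies were called, where 1.83% of all genes were. Their reads cannot be told apart and they passed the filter through DNMT3ABKO, so these are not 9 separate results. Summed over the 9 the level was 2.94 and 4.26 TPM in KH at 0 h and 1.19 and 1.33 TPM at 72 h. In DNMT3ABKO it was 89.1 and 108 TPM and then 244 and 241 TPM. The sum, which does not depend on how reads were split among the copies, differed in response by 2.31 on the log2 scale.

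The transcription factor Dux, annotated in the files as Duxf3 and present in near-identical repeated copies, was at 0 to 0.0556 TPM in the 4 KH libraries, at 0.612 and 0.460 TPM in DNMT3ABKO at 0 h and at 3.38 and 3.88 TPM at 72 h (difference in response 1.54 ± 0.19, adjusted p = 0.01). Tmem92, whose product is a transmembrane protein, was at 0 to 0.0981 TPM in KH and went from 2.03 and 1.97 to 8.94 and 8.0 TPM in DNMT3ABKO (1.66 ± 0.18, adjusted p = 0.00839). The 5 Usp17l genes, which encode deubiquitinases and are also close copies, together went from 10.8 and 11.2 to 28.8 and 29.0 TPM in DNMT3ABKO and stayed between 0.239 and 0.449 TPM in KH. All of these were nearly silent in KH at both times and rose in DNMT3ABKO. Tcstv1, Tcstv3 and the translation factor Eif1a were the 3 tested members of the list that were not called (adjusted p = 0.134, 0.0864 and 0.529). Because the KH values lie below the pseudocount of 1 TPM, the size depends on it: with 0.1 TPM 7 of the 17 were called. Usp17la, Usp17ld and the listed member AF067061 lost their calls with the replicate block (adjusted p = 0.138, 0.0751 and 0.0907).

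Of germline genes under promoter methylation 30 were listed and 25 tested. At 0 h 16 were called higher in DNMT3ABKO (2 lower), where 2.89% of all genes were higher. At 72 h it was 18 (2 lower), where 6.1% of all genes were higher. Members near 0 in KH, such as Nxf2, passed the filter through the level in DNMT3ABKO, so nothing is read from these counts. A difference in response was called only for Stra8 and Nxf2, 8.0% of the 25 against 1.83% over all genes. The median was 0.18, and it was 0.05 and 0.27 without DNMT3ABKO replicate 1 or 2 at 0 h. Stra8, the retinoic acid induced gene that licenses germ cells for meiosis, was at 1.59 and 1.55 TPM in KH at 0 h and at 3.07 and 3.47 TPM at 72 h. In DNMT3ABKO it went from 5.23 and 3.72 to 30.3 and 29.0 TPM. It rose in both lines and rose by more in DNMT3ABKO, by 1.77 ± 0.20 (adjusted p = 0.00887), and the 0 h groups already did not overlap (0 h difference 1.08, adjusted p = 0.00500).

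Nxf2, an X-linked member of the mRNA export factor family expressed in the testis, was at 0.108 to 0.327 TPM in KH and went from 0.954 and 0.833 to 3.94 and 3.72 TPM in DNMT3ABKO (1.19 ± 0.18, adjusted p = 0.0198). Nxf3, a family member outside the list and named after its values were seen, was at 0.198 and 0.158 TPM in KH at 0 h, 1.08 and 0.861 TPM in KH at 72 h, and went from 4.47 and 6.04 to 22.9 and 21.1 TPM in DNMT3ABKO (1.15 ± 0.21, adjusted p = 0.0393). Both rose in DNMT3ABKO, without overlap with KH at either time. Magea4, a cancer-testis antigen of the MAGE family also named after its values were seen, was at 0.0221 to 0.0766 TPM in KH and went from 1.99 and 2.39 to 5.90 and 5.31 TPM in DNMT3ABKO (0.99 ± 0.18, adjusted p = 0.0417).

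The upstream sequence of Nxf2 is shown because it holds 5 copies of the E-box CACGTG, the palindromic letters read by MAX and its partners and, in their CG, open to methylation. It is the 250 bases before the start at the minus strand of chrX:134964755-134965004 (RefSeq, GRCm38.p6), 5′ to 3′, with each CACGTG in capitals; it holds 16 CG sites in all.
Nxf2: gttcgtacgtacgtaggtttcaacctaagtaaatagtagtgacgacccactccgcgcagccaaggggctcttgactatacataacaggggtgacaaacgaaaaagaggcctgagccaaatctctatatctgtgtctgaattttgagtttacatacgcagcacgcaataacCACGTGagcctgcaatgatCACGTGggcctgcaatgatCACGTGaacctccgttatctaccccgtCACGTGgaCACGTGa
CACGTG, which reads the same on both strands, was present in the 300-base promoters (250 bases before to 50 after the start) of 10.6% of the 9616 tested genes matched to RefSeq, and of 8.18% of the 159 matched called genes. TTCCCGCC, a letter string read by E2F factors and searched on both strands, was in 4.53% and 5.03%. A match is a description of letters and not a binding site.

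Promoters of the widened, higher genes held few CG sites. Of the 76, 26 had a matched promoter, with a median of 3 CG in 300 bases (middle 50% 1.2 to 4.0), against a median of 21 (14 to 29) over the 9616. The median was 15 for the 42 matched genes that arose higher, 12 for the 39 that arose lower, 24 for the 24 that narrowed higher and 9.5 for the 14 that narrowed lower. The 26 include near-identical copies and are not independent of one another.

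X-linked genes of the reproductive tract and germline moved in both directions. Of 26 listed, 12 were tested, the median was 0.39, and Tsx was called higher and Rhox9 lower (16.7%, against 1.83% over all genes). At 0 h 9 of the 12 were already called higher in DNMT3ABKO and 0 lower, where 2.89% of all genes were higher. At 72 h it was again 9 higher and 0 lower, where 6.1% were higher. Members may have passed the filter through their level in DNMT3ABKO, so nothing is read from these counts. Tsx, a testis-specific gene beside the X inactivation centre, was at 1.73 and 0.942 TPM in KH at 0 h and at 0.794 and 1.31 TPM at 72 h. In DNMT3ABKO it was at 1.16 and 1.35 TPM at 0 h, within the KH range, and at 8.21 and 8.16 TPM at 72 h. The lines overlapped at 0 h and stood apart only at 72 h, and their responses differed by 2.21 ± 0.27 (adjusted p = 0.01), and at 144 h the line difference was still 1.96. Its upstream sequence is shown as that of the named gene with the largest difference among those that arose (chrX:103414217-103414466, plus strand, RefSeq, GRCm38.p6, 5′ to 3′, CG in capitals), and holds 3 CG sites.
Tsx: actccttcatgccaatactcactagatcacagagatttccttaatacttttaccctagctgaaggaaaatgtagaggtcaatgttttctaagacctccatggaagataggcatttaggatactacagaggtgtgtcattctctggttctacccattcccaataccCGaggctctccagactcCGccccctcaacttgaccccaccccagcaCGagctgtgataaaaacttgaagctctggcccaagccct
Rhox9, a reproductive homeobox gene, was at 28.0 and 25.3 TPM in KH at 0 h and at 3.51 and 3.34 TPM at 72 h, against 56.4 and 49.0 TPM and then 2.45 and 2.76 TPM in DNMT3ABKO. It fell in both lines, and the 0 h excess in DNMT3ABKO (0.96) was no longer called at 72 h.

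Among the genes that arose higher, Wt1 (chr2:105126529-105173616, plus strand), a zinc finger transcription factor of kidney and gonad development, was at 3.07 and 3.59 TPM in KH at 0 h and 8.78 and 7.71 TPM at 72 h, and at 1.65 and 2.32 TPM and then 24.5 and 24.4 TPM in DNMT3ABKO. It rose in both lines and ended higher in DNMT3ABKO, where it had not begun higher (0 h difference -0.54, adjusted p = 0.0707), with a difference of 2.00 ± 0.19 (adjusted p = 0.00816). Cntfr, the alpha receptor of ciliary neurotrophic factor, which signals through the same gp130 and STAT3 route as LIF, went from 4.69 and 5.6 to 25.5 and 23.3 TPM in KH and from 2.10 and 3.53 to 48.7 and 49.9 TPM in DNMT3ABKO (1.70 ± 0.24, adjusted p = 0.0162). It was the only called member of 20 tested LIF and STAT3 genes (5.0%, against 1.83% over all genes). Their median was 0.08, and -0.08 and 0.19 without DNMT3ABKO replicate 1 or 2 at 0 h.

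Zfp467, a zinc finger factor, was at 1.12 to 2.14 TPM in KH and went from 2.12 and 1.49 to 5.59 and 6.40 TPM in DNMT3ABKO (1.66 ± 0.23, adjusted p = 0.0157). Ccdc194, a coiled-coil protein gene, went from 0.716 and 1.31 to 3.22 and 3.77 TPM in KH and from 0.635 and 0.593 to 11.4 and 11.4 TPM in DNMT3ABKO (1.76 ± 0.22, adjusted p = 0.0108). Neither differed between the lines by a call at 0 h, and both stood apart at 72 h. By 144 h the line difference of Wt1 was -0.25, that of Zfp467 0.21 and that of Ccdc194 -0.62, none of them called (adjusted p = 0.0514, 0.614 and 0.0530). Cntfr was called lower in DNMT3ABKO at 144 h (-0.585, adjusted p = 0.00392).

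The crossed, higher genes began below KH in DNMT3ABKO and were above it at 72 h, which did not last to 144 h in all of them. Peg10, an imprinted, retrotransposon-derived gene expressed from the paternal allele and needed in the placenta, had the largest difference in response among the higher genes that the naming rule took. Located at chr6:4747306-4760517 (plus strand), it was at 79.4 and 87.2 TPM in KH at 0 h and 65.6 and 64.8 TPM at 72 h, and went from 26.4 and 36 to 123 and 122 TPM in DNMT3ABKO. The order of the lines turned over without overlap at either time (0 h difference -1.41, 72 h difference 0.90, difference in response 2.30 ± 0.19, adjusted p = 0.00610), and at 144 h the lines, at 78.0 and 65.4 TPM and 60.2 and 60.2 TPM, were not called different. Of 45 tested imprinted genes, 34 had a positive difference, where 52.7% of all genes did. Their median was 0.21 (0.10 and 0.28 without DNMT3ABKO replicate 1 or 2 at 0 h). Peg10 and Cdkn1c were the 2 called (4.44%, against 1.83% over all genes), with nothing read from the counts. Cdkn1c, a cyclin-dependent kinase inhibitor expressed from the maternal allele, began level in both lines (18.6 and 20.3 TPM in KH, 18.0 and 21.3 TPM in DNMT3ABKO) and reached 29.8 and 30.5 TPM in KH and 51.8 and 52.6 TPM in DNMT3ABKO (0.76 ± 0.14, adjusted p = 0.0438, and 0.0976 with the replicate block).

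Epha1, an ephrin receptor tyrosine kinase of epithelia, was at 13.3 and 13.6 TPM in KH at 0 h and 15.5 and 14.5 TPM at 72 h, and went from 4.96 and 5.81 to 23.1 and 22.8 TPM in DNMT3ABKO (1.76 ± 0.14, adjusted p = 0.00610). It overlaps Zyx in the annotation, as Grhl2, Dnmt3l, Pfkm, Mthfd2 and Txnip overlap other expressed genes, and reads of such overlaps may have been shared. Igfbp3, a secreted carrier of insulin-like growth factors, fell in KH from 37.2 and 38.7 to 12 and 12.8 TPM and was at 18.2 and 24.8 and then 19.6 and 18.4 TPM in DNMT3ABKO (1.38 ± 0.19, adjusted p = 0.0154). Between the times Epha1 was called as changed in DNMT3ABKO alone and Igfbp3 in KH alone. At 144 h Epha1 was called lower in DNMT3ABKO again (line difference -0.52, adjusted p = 0.00522) and Igfbp3 higher (0.95, adjusted p = 0.00118).

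**Figure D2:**
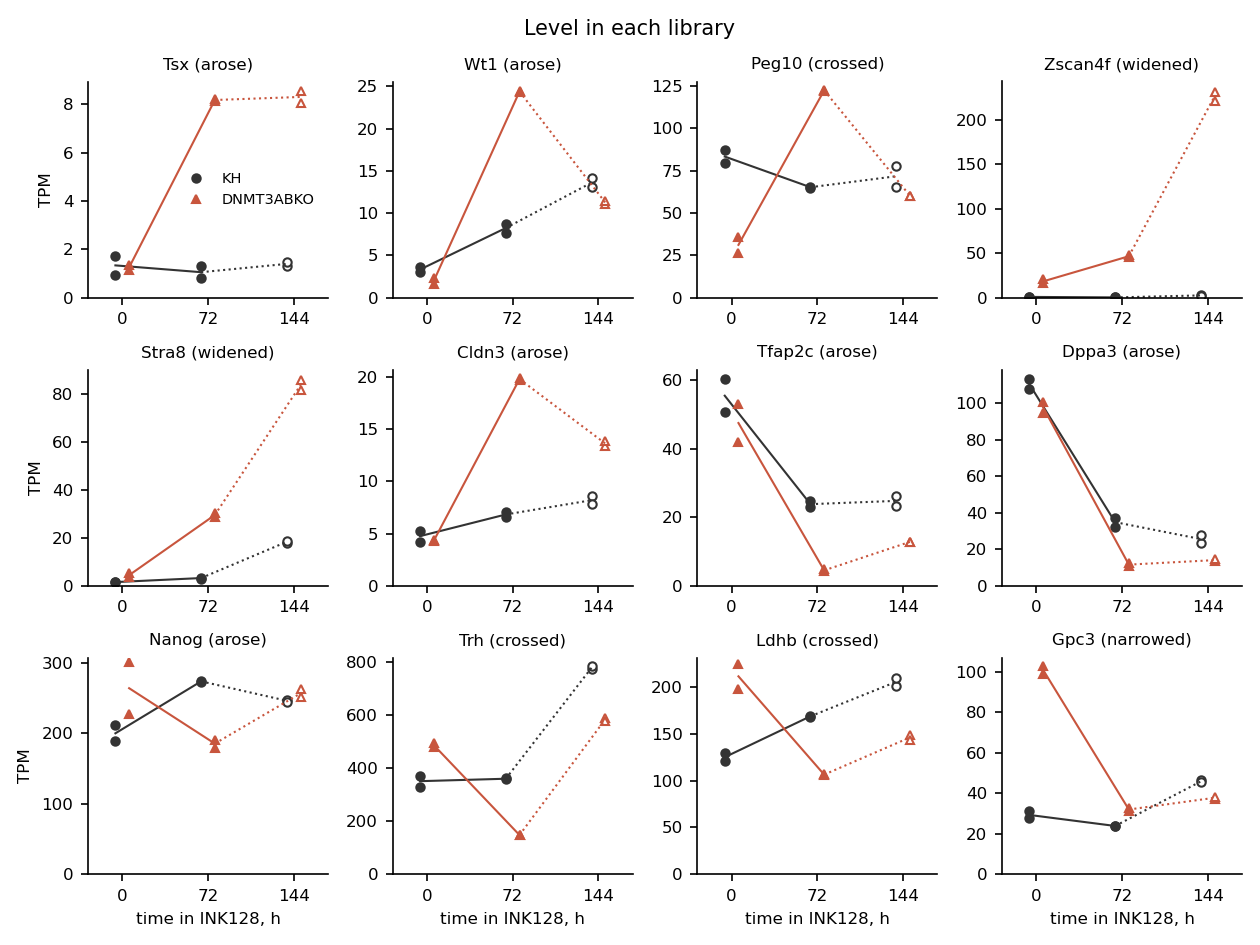
TPM (y axis, from 0) in each library of 12 called genes at 0, 72 and 144 h (x axis), with KH as circles, DNMT3ABKO as triangles, 1 mark per library, lines through the means of 2 and open marks for the 144 h libraries, which are outside the tested comparison. Zscan4f and Stra8 kept rising to 144 h in DNMT3ABKO, whereas Wt1 and Peg10 returned to near the KH level.

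Genes of epithelial junctions and surfaces formed a further set, gathered after their values were seen and so described without any claim for the set. Of 44 genes listed, 41 were tested and 33 had a positive difference in response, where 52.7% of all genes did. The 9 called, all higher, were 22.0% of the 41, against 1.83% over all genes, and the median was 0.42. At 0 h 19 of the 41 were called lower and 1 higher in DNMT3ABKO, and at 72 h 6 were called lower and 5 higher. The median line difference went from -0.50 at 0 h to -0.11 at 72 h. Without DNMT3ABKO replicate 1 at 0 h the median difference in response was 0.29, and without replicate 2 it was 0.45.

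Grhl2, a grainyhead transcription factor that opens epithelial enhancers, went from 15.7 and 17.4 to 39.4 and 39.1 TPM in KH and from 8.45 and 10.9 to 59.8 and 59.3 TPM in DNMT3ABKO (1.31 ± 0.17, adjusted p = 0.0112). Cldn3, a tight junction claudin, went from 4.24 and 5.29 to 7.04 and 6.64 TPM in KH and from 4.35 and 4.31 to 19.7 and 19.9 TPM in DNMT3ABKO (1.52 ± 0.16, adjusted p = 0.00839), and with Ovol1 it was one of the 2 called members that arose. Epcam, an adhesion molecule of epithelia and ES cells, was at 115 and 124 TPM in KH at 0 h and 143 and 143 TPM at 72 h, and went from 76.5 and 91.5 to 179 and 171 TPM in DNMT3ABKO (0.79 ± 0.14, adjusted p = 0.0350). Grhl2 and Epcam began lower in DNMT3ABKO without overlap, and at 72 h Grhl2 was called higher (0.59) and Epcam was not (0.29, adjusted p = 0.0981). Cldn4, Cldn7, Lsr, Lad1 and Tgm1 narrowed with differences between 0.77 for Cldn4 and 0.97 for Cldn7, whereas the adherens junction cadherin Cdh1 had 0.28 (adjusted p = 0.403). Epcam, Cldn4, Cldn7, Lsr and Lad1 lost their calls with the replicate block (adjusted p = 0.0766, 0.0975, 0.0832, 0.1 and 0.0751).

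**Figure D3:**
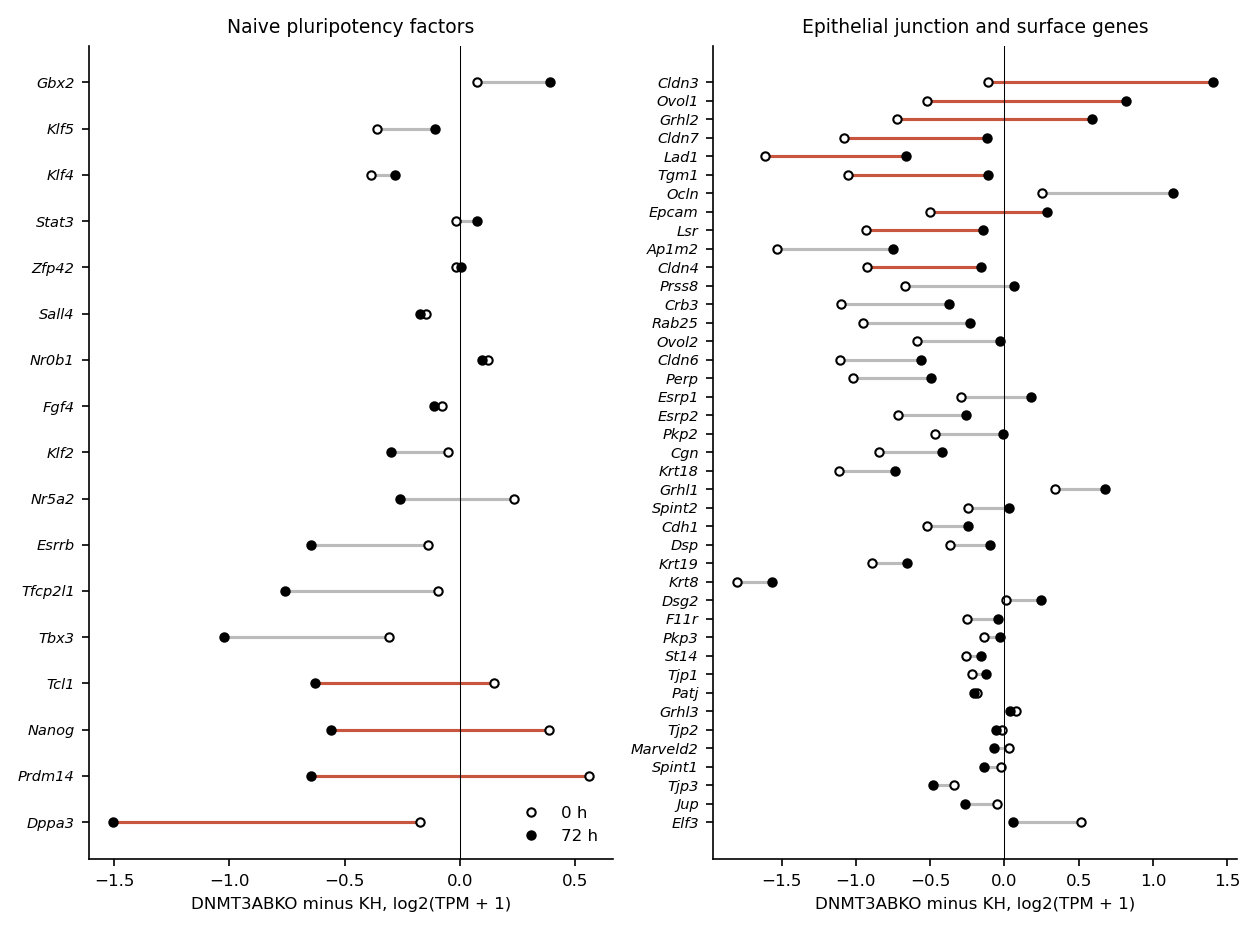
Line difference (DNMT3ABKO minus KH, x axis, log2(TPM + 1)) at 0 h (open) and 72 h (filled) for the 17 naive pluripotency factors and the 41 tested epithelial genes, joined by a bar that is red where the difference in response was called. The 4 called naive factors moved to the left, and the 9 called epithelial genes moved to the right, most of them from below 0 towards it.

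Among naive pluripotency factors the called differences were all lower in DNMT3ABKO. All 17 listed factors were tested and 12 had a negative difference, where 52.7% of all genes had a positive one. The 4 called, all lower, were 23.5% of the list, against 1.83% over all genes, with nothing read from the count. The median was -0.25 against 0.02 over all genes. The median change over the 72 h was 0.60 in KH and 0.33 in DNMT3ABKO. None was called lower in DNMT3ABKO at 0 h and 7 were at 72 h, against 1.93% and 6.08% over all genes. The median shifted with the 0 h libraries of DNMT3ABKO, to -0.45 without replicate 1 and -0.05 without replicate 2, where the median over all genes was -0.06 and 0.09.

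Dppa3, a maternal factor that protects the oocyte and zygote genome from methylation changes, fell in both lines, from 108 and 113 to 32.4 and 37.4 TPM in KH and from 94.8 and 101 to 12.4 and 10.9 TPM in DNMT3ABKO (-1.33 ± 0.14, adjusted p = 0.00839). Prdm14, a PR domain factor that represses Dnmt3a and Dnmt3b and fibroblast growth factor signalling, rose in KH from 3.76 and 4.95 to 10.3 and 11 TPM and was at 6.83 and 6.88 and then 6.68 and 6.21 TPM in DNMT3ABKO (-1.21 ± 0.18, adjusted p = 0.0175). Nanog, a homeobox factor of the naive network, rose in KH from 189 and 212 to 275 and 273 TPM and fell in DNMT3ABKO from 227 and 301 to 191 and 180 TPM (-0.95 ± 0.18, adjusted p = 0.0490). Nanog lay nearest to the threshold of the 4, and with the replicate block Nanog and Tcl1 lost their calls (adjusted p = 0.0642 and 0.0646). Tcl1, a co-activator of AKT, rose in KH from 39.9 and 42.3 to 64.4 and 64.9 TPM and stayed at 45.1 and 46.0 and then 40.5 and 42.4 TPM in DNMT3ABKO (-0.78 ± 0.11, adjusted p = 0.0148).

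Esrrb, Tbx3 (-0.71, adjusted p = 0.122) and Tfcp2l1 (-0.66, adjusted p = 0.169) had negative differences that did not pass. Esrrb, an orphan nuclear receptor, went from 218 and 231 to 397 and 370 TPM in KH and from 207 and 200 to 244 and 246 TPM in DNMT3ABKO (-0.51 ± 0.11, adjusted p = 0.0581). Zfp42, Nr0b1, Fgf4 and Sall4 had differences between -0.03 and 0.02. Core pluripotency and ES cell genes, 20 in number, had a median of 0.17 (0.08 and 0.28 without DNMT3ABKO replicate 1 or 2 at 0 h). Epcam was the only one called (5.0%, against 1.83% over all genes). Nanog and Tcl1 were not called different between the lines at 144 h (adjusted p = 0.292 and 0.153), whereas Dppa3 still was (-0.82, adjusted p = 0.00335).

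Tfap2c, an AP-2 transcription factor of trophoblast and primordial germ cells that also acts in naive cells, arose lower. The gene lies at chr2:172549593-172558622 on the plus strand. It was at 50.6 and 60.2 TPM in KH at 0 h and 24.7 and 22.9 TPM at 72 h, and went from 42.0 and 52.9 to 4.84 and 4.19 TPM in DNMT3ABKO. The lines overlapped at 0 h and were far apart at 72 h, with a difference of -1.95 ± 0.19 (adjusted p = 0.00830). Of 12 tested trophoblast genes it was the only one called (8.33%, against 1.83% over all genes). The list median was 0.24 (0.11 and 0.36 without DNMT3ABKO replicate 1 or 2 at 0 h). Pax6, a neural and eye homeobox gene, rose in KH from 1.80 and 2.51 to 7.09 and 8.4 TPM and was at 6.84 and 10.1 and then 5.28 and 5.55 TPM in DNMT3ABKO (-2.02 ± 0.27, adjusted p = 0.0123), and the 0 h range of DNMT3ABKO held that of KH at 72 h.

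Trh, the precursor of thyrotropin-releasing hormone and an abundant transcript of ES cells, was at 330 and 371 TPM in KH at 0 h and 357 and 362 TPM at 72 h. In DNMT3ABKO it fell from 480 and 493 to 148 and 147 TPM. It began higher and ended lower in DNMT3ABKO without overlap, with a difference of -1.76 ± 0.11 and the smallest adjusted p of the 286 genes (0.00419). By 144 h it had risen in both lines, to 773 and 783 TPM in KH and 589 and 578 TPM in DNMT3ABKO. Its upstream sequence (chr6:92244651-92244900, minus strand, RefSeq, GRCm38.p6, 5′ to 3′, CG in capitals) holds 25 CG sites and is shown as a CG-rich contrast to the sequences above.
Trh: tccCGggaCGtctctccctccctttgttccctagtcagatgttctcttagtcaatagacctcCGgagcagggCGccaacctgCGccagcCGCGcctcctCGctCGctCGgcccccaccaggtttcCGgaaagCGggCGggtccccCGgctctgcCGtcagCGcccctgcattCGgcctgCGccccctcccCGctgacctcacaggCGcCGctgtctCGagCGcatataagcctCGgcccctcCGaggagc

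Ldhb, the heart-type lactate dehydrogenase subunit, went from 121 and 130 to 169 and 170 TPM in KH and from 226 and 198 to 107 and 106 TPM in DNMT3ABKO (-1.41 ± 0.12, adjusted p = 0.00610). Fxyd6, a regulator of the sodium pump, went from 25.9 and 28.4 to 45.1 and 44.6 TPM in KH and from 35.4 and 35.5 to 22.0 and 23.1 TPM in DNMT3ABKO (-1.34 ± 0.12, adjusted p = 0.00610). Both rose in KH and fell in DNMT3ABKO, and crossed. Ap3b2, a subunit of a neuronal adaptor complex for vesicle transport, was at 3.16 to 4.08 TPM in KH and fell from 6.21 and 7.26 to 1.33 and 1.22 TPM in DNMT3ABKO (-1.53 ± 0.17, adjusted p = 0.00839).

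Glycolysis and hypoxia genes split. Of 32 tested, Ldhb, Hk1 and Pfkm were called lower and Slc16a3 and Pdk1 higher, with a median of -0.05. The calls were 15.6% of the list, against 1.83% over all genes, with nothing read from the difference. Hk1, a hexokinase, fell from 23.8 and 27.6 to 14.2 and 14.9 TPM in KH and from 28.1 and 27.6 to 7.52 and 7.26 TPM in DNMT3ABKO (-1.01 ± 0.14, adjusted p = 0.0146). Slc16a3, the lactate exporter MCT4, fell from 33.4 and 36.4 to 11.7 and 11.9 TPM in KH but only from 28.6 and 27.0 to 22.2 and 22.6 TPM in DNMT3ABKO (1.19 ± 0.12, adjusted p = 0.00830). Pfkm, a phosphofructokinase, was one of the 3 widened, lower genes (-0.65 ± 0.13, adjusted p = 0.0490) with Fgfbp1, a carrier of fibroblast growth factors (-0.91 ± 0.16, adjusted p = 0.0346), and Rbm47, an RNA-binding protein (-0.98 ± 0.15, adjusted p = 0.0185). With the replicate block Pfkm, Pdk1 and Fgfbp1 lost their calls (adjusted p = 0.188, 0.0976 and 0.0763).

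Narrowed genes also included some in which DNMT3ABKO began low and KH fell to meet it. Calml4, a calmodulin-like protein, fell in KH from 19 and 14.5 to 3.53 and 3.37 TPM and was at 6.12 and 5.15 and then 4.71 and 3.94 TPM in DNMT3ABKO (1.67 ± 0.21, adjusted p = 0.0113). Car2, a carbonic anhydrase, fell from 48.0 and 52.8 to 10.5 and 10.7 TPM in KH and from 19.6 and 25.3 to 13 and 15.1 TPM in DNMT3ABKO (1.51 ± 0.19, adjusted p = 0.0104). Fgf5, the formative epiblast growth factor, fell from 11.5 and 11.8 to 0.743 and 0.704 TPM in KH and from 3.97 and 4.06 to 1.01 and 0.562 TPM in DNMT3ABKO (1.38 ± 0.20, adjusted p = 0.0162). In all of these the 0 h groups did not overlap and the 72 h line difference was not called. Sema6a, a transmembrane semaphorin, and Sprr2a2, a cornified envelope protein with near-identical neighbours, narrowed with differences of 1.44 ± 0.21 (adjusted p = 0.0178) and 1.52 ± 0.17 (adjusted p = 0.00839).

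In the opposite direction, Gpc3, a heparan sulphate proteoglycan of the cell surface, was at 27.5 and 31.0 TPM in KH at 0 h and 24.0 and 23.7 TPM at 72 h, and fell from 99.1 and 103 to 32.6 and 31.4 TPM in DNMT3ABKO (-1.35 ± 0.12, adjusted p = 0.00638). Naaa, a lysosomal amidase, fell from 6.05 and 6.21 to 2.88 and 2.07 TPM in KH and from 11.8 and 18.7 to 1.67 and 1.5 TPM in DNMT3ABKO (-1.57 ± 0.29, adjusted p = 0.0417). Notch4, a Notch receptor, rose from 4.21 and 4.10 to 19.6 and 18.5 TPM in KH and from 10.1 and 9.15 to 15.5 and 16.9 TPM in DNMT3ABKO (-1.26 ± 0.14, adjusted p = 0.00839). For each of them an excess in DNMT3ABKO at 0 h was smaller or no longer called at 72 h. Lefty1 and Lefty2, secreted inhibitors of Nodal, narrowed likewise (-0.76 ± 0.12, adjusted p = 0.0245, and -0.83 ± 0.12, adjusted p = 0.0162), and with the replicate block Lefty1 lost its call (adjusted p = 0.0876).

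Calls in signalling lists are set beside the 1.83% called over all genes, with nothing read from the difference. Of 15 tested Wnt targets 3 (20.0%) were called, all higher: the feedback gene Axin2 (10.3 and 10.2 to 23.8 and 20.3 TPM in KH, 7.46 and 7.05 to 28.4 and 30.1 TPM in DNMT3ABKO, 0.84 ± 0.15, adjusted p = 0.0344), the transcription factor Lef1 (1.15 ± 0.14, adjusted p = 0.0106) and the ligand Wnt8a (1.52 ± 0.22, adjusted p = 0.0175). Their list median was 0.19, and it was 0.02 and 0.32 without DNMT3ABKO replicate 1 or 2 at 0 h. Of 22 fibroblast growth factor and ERK genes 3 (13.6%) were called: the immediate early factor Egr1 (56.0 and 62.4 to 106 and 100 TPM in KH, 44.7 and 54.8 to 182 and 174 TPM in DNMT3ABKO, 1.04 ± 0.16, adjusted p = 0.0180) and Fgf5 higher and Fgfbp1 lower, with a list median of 0.25. Of 18 tested retinoic acid and Hox genes 4 (22.2%) were called, all higher, with a list median of 0.15 (-0.01 and 0.26 without DNMT3ABKO replicate 1 or 2 at 0 h): the receptors Rarg (0.69 ± 0.12, adjusted p = 0.0363) and Rxrg (0.96 ± 0.19, adjusted p = 0.0490), the retinoic acid hydroxylase Cyp26a1 (1.11 ± 0.22, adjusted p = 0.0490) and the non-coding RNA Halr1 (0.86 ± 0.14, adjusted p = 0.0230). Rxrg and Cyp26a1 were under 5 TPM in every library. With the replicate block Axin2, Rarg, Rxrg, Cyp26a1 and Halr1 lost their calls (adjusted p = 0.0876, 0.108, 0.108, 0.0907 and 0.0562). Among 19 tested BMP and Nodal targets Lefty1 and Lefty2 were the 2 (10.5%) called. Of 21 tested formative and primed genes 2 were called higher and 2 lower, and 10 differences were positive and 11 negative. The list median was -0.06 (-0.08 and 0.1 without DNMT3ABKO replicate 1 or 2 at 0 h), so the list showed no shift in either direction. Pou3f1, an octamer factor, was among the 2 called higher, and it arose. It went from 8.10 and 8.90 to 10.3 and 9.4 TPM in KH. In DNMT3ABKO it went from 6.64 and 7.01 to 19.8 and 19.9 TPM (1.23 ± 0.14, adjusted p = 0.00881).

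Among the other methylation genes 2 were called, both higher. Of 18 tested genes Dnmt3l, the catalytically inactive partner of Dnmt3a and Dnmt3b, began level at 237 and 251 TPM in KH and 236 and 238 TPM in DNMT3ABKO and reached 442 and 429 TPM and 662 and 658 TPM (0.64 ± 0.10, adjusted p = 0.0202). Tet3, a dioxygenase that oxidises methylated cytosine, was at 4.89 to 5.2 TPM in KH and went from 4.30 and 3.83 to 8.59 and 8.03 TPM in DNMT3ABKO (0.82 ± 0.15, adjusted p = 0.0383). Dnmt3l and Tet3 lost their calls with the replicate block (adjusted p = 0.108 and 0.113). The other 16, Dnmt3a and Dnmt3b among them, were not called, and the median was 0.10 (0.03 and 0.12 without DNMT3ABKO replicate 1 or 2 at 0 h). The 2 calls were 11.1% of the 18, against 1.83% over all genes, with nothing read from the count.

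Among genes that arose and belong to no list, named here after their values were seen, Dpp4, a cell surface dipeptidyl peptidase, went from 3.54 and 4.21 to 12.4 and 12.6 TPM in KH and from 1.98 and 2.93 to 28.9 and 28.0 TPM in DNMT3ABKO (1.63 ± 0.20, adjusted p = 0.0104). Txnip, an inhibitor of thioredoxin and of glucose uptake, rose from 82.3 and 92.2 to 333 and 325 TPM in KH but only from 83.8 and 92.2 to 181 and 184 TPM in DNMT3ABKO (-0.86 ± 0.12, adjusted p = 0.0156). Both moved the same way in both lines, by different amounts.

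Feeder and macrophage markers had mostly negative differences, with a single call. Over all genes 52.7% of the differences were positive and 1.83% of the genes were called. Of 40 tested fibroblast markers 36 had a negative difference, with a median of -0.36, 20 had an unadjusted p under 0.05 in that direction, and S100a4 was the only one called (269 and 279 to 52.7 and 55.6 TPM in KH, 326 and 342 to 44.6 and 38.8 TPM in DNMT3ABKO, -0.66 ± 0.12, adjusted p = 0.0459). Of 19 tested macrophage markers 17 were negative, with a median of -0.28 (-0.41 and -0.15 without DNMT3ABKO replicate 1 or 2 at 0 h) and none called by limma. The summed macrophage list went from 378 and 413 to 293 and 284 TPM in KH and from 323 and 356 to 189 and 193 TPM in DNMT3ABKO. Genes that feeder cells express can carry this shift, and its part in the lower responses was not tested. Among 22 tested interferon and antigen presentation genes Ifitm1, an interferon-induced membrane protein (189 and 200 to 152 and 142 TPM in KH, 223 and 248 to 69.0 and 68.4 TPM in DNMT3ABKO, -1.36 ± 0.12, adjusted p = 0.00610), and Ifi27 (-0.92 ± 0.17, adjusted p = 0.0444) were called lower, with a median of -0.22. With the replicate block S100a4 and Ifi27 lost their calls (adjusted p = 0.126 and 0.107).

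Growth and housekeeping lists are given beside the same 1.83% over all genes, again with nothing read from their counts. None of 47 ribosomal protein genes (median 0.01), 40 clustered histone genes (-0.11), 33 replication and mitosis genes (-0.10), 24 sterol genes (-0.27), 15 fatty acid genes (-0.05) or 19 polycomb genes (0.13) was called by limma, with 0, 6, 7, 6, 4 and 2 of them at an unadjusted p under 0.05. The sterol genes leaned lower, with 21 differences negative and 3 positive. Their median was -0.35 and -0.17 without DNMT3ABKO replicate 1 or 2 at 0 h. In DNMT3ABKO 0 of them were called lower at 0 h and 8 at 72 h, against 1.93% and 6.08% over all genes. Single calls came from 42 lysosome and autophagy genes (Calcoco2, an autophagy receptor, -1.23 ± 0.17, adjusted p = 0.0162), from 30 Atf4 genes (the mitochondrial folate enzyme Mthfd2, 0.98 ± 0.16, adjusted p = 0.0304), from 6 neural genes (Pax6), from 15 primitive endoderm genes (Gpc3) and from 29 G1 and p53 genes (Cdkn1c). The medians of these lists were -0.04, 0.12, 0.00, -0.08 and -0.06, within the shifts that leaving out a 0 h library of DNMT3ABKO gave.

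**Figure D4:**
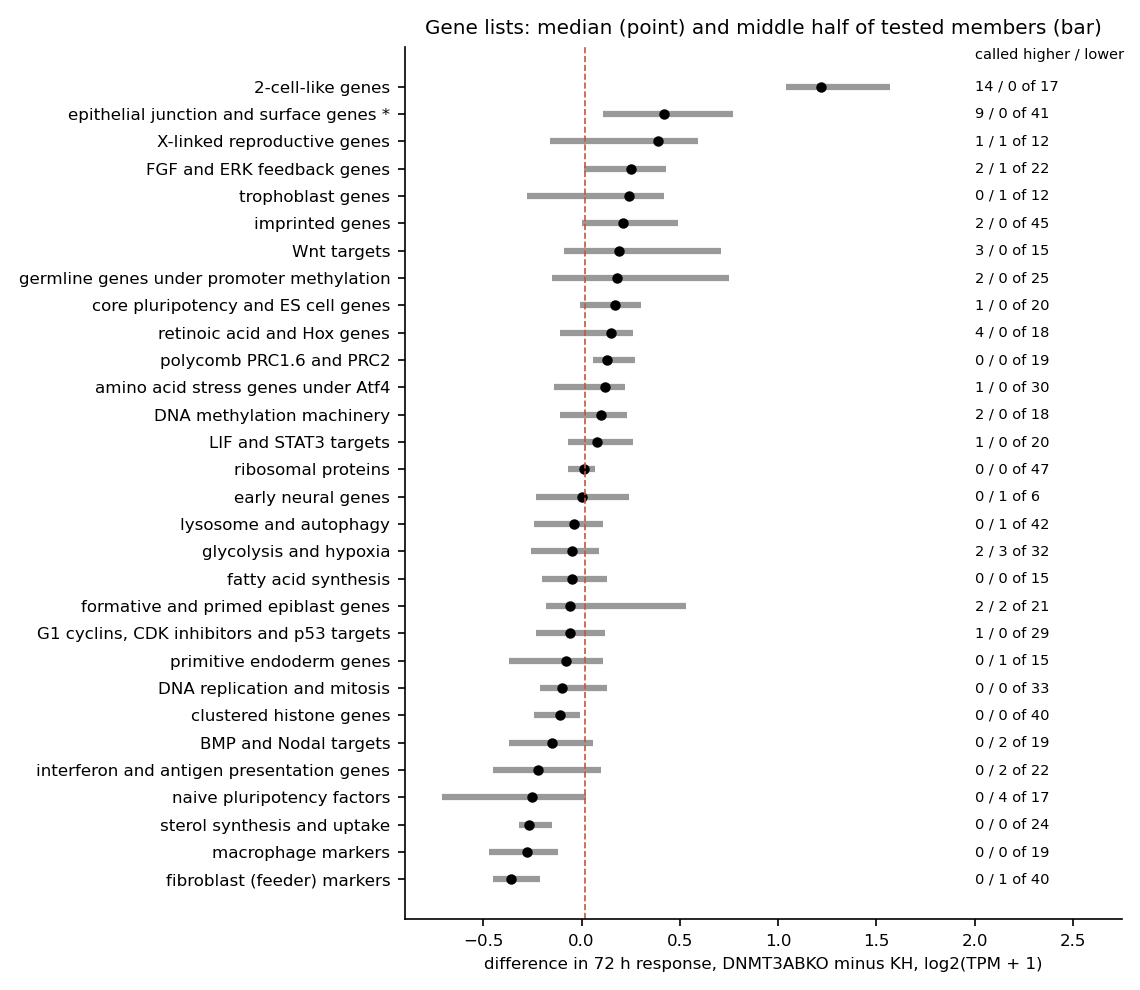
Median difference in 72 h response (point) and middle 50% (bar) of the tested members of 30 gene lists, in log2(TPM + 1), with the number called higher and lower at the right; the dashed line is the median over all 15615 genes and the asterisk marks the list written after its values were seen. The 2-cell-like list, whose members passed the filter through DNMT3ABKO, stands at 1.22, and the feeder list lowest at -0.36.

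A single gene, Pagr1b, a subunit of a histone methyltransferase complex, had the largest lower value (-4.83 ± 0.52, adjusted p = 0.00839). It was at 2.41 and 0.970 TPM in KH at 0 h, at 10.7 and 4.35 TPM in KH at 72 h and at 7.58 and 9.15 TPM in DNMT3ABKO at 0 h, and was listed at 0 in both DNMT3ABKO libraries at 72 h. It overlaps its near-identical copy Pagr1a and Mvp, and the sum of Pagr1a and Pagr1b spread widely within groups, at 8.08 and 1.52 TPM in DNMT3ABKO at 72 h. How reads were divided between the copies is uncertain. Cpsf4l, a cleavage and polyadenylation factor-like gene, rose in KH from 18.8 and 21.5 to 38.2 and 36.5 TPM while falling from 21.5 and 25.9 to 16.6 and 16.6 TPM in DNMT3ABKO (-1.35 ± 0.16, adjusted p = 0.00909).

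The 144 h libraries, which took no part in choosing the genes, show what became of the differences. In a fit on these 4 libraries alone, 13.3% of the genes tested were called higher and 20.0% lower in DNMT3ABKO. All 76 widened, higher genes were called higher, with a median line difference of 4.24 after 1.23 at 0 h and 2.76 at 72 h. They were chosen as higher in DNMT3ABKO at both earlier times, and in KH 68 of them were under 1 TPM at both. Calls at 144 h were therefore likely from the choice, and nothing is read from their count. Of the 67 that arose higher, 36 were called higher and 6 lower, and the median line difference went from 0.97 at 72 h to 0.35. Of the 63 that arose lower, 35 were called lower and 1 higher, and the median went from -0.81 to -0.29. Genes that arose were chosen for a called difference at 72 h, so their 72 h medians are likely too large. Smaller medians in other libraries would follow in part from that choice. Of the 39 that narrowed higher, 20 were called lower again and 2 higher, with a median of -0.33 after -0.89 at 0 h and 0.17 at 72 h. Of the 21 that narrowed lower, 4 were called in each direction, with a median of 0.08. Of the 6 that crossed higher, 3 were called lower again and 2 higher, with a median of -0.38. Of the 10 that crossed lower, 7 were called lower and 0 higher, with a median of -0.47.

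**Figure D5:**
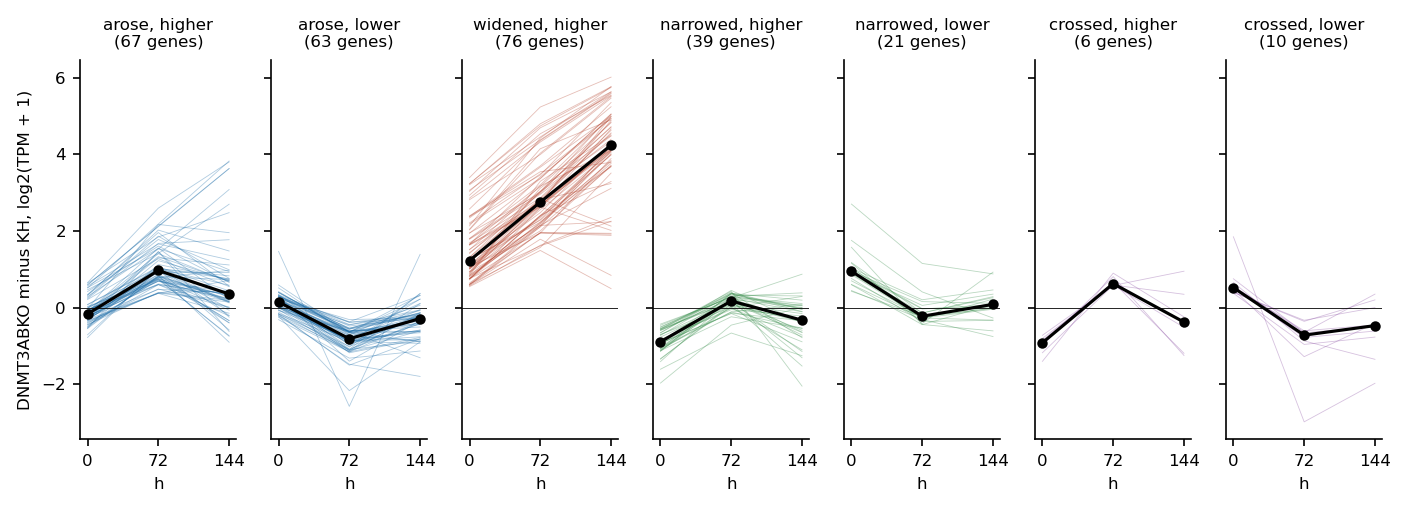
Line difference (DNMT3ABKO minus KH, y axis, log2(TPM + 1)) at 0, 72 and 144 h (x axis) for the called genes, 1 thin line per gene and the median in black, in panels by class and direction of the difference in response. The widened, higher panel has a median of 4.24 at 144 h, and the panels of genes that arose have medians of 0.35 and -0.29. Genes that arose were chosen for their 72 h difference, so a smaller median at 144 h follows in part from that choice.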

How the data were processed

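RNA was measured in 12 libraries of sorted ES cells, of which the 8 at 0 h and 72 h carry the comparison and the 4 at 144 h were fitted apart. Per the study's methods, ERCC spike-in RNA was added, libraries were made from ribosome-depleted total RNA and reads were mapped to mm10 and assigned to GENCODE VM19 genes. The submitters' processing notes name cutadapt 2.4, STAR 2.7.3a and StringTie 2.0. Values were deposited as TPM for each gene, scaled by the authors to the same total in each library, and hold 0 spike-in rows, so levels are relative within a library. Read depth per library was not used here, and the precision rests on 2 libraries per group.

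Rows that repeat a gene identifier (9 to 16 per library) were summed. Genes averaging under 1 TPM across these 8 libraries were left out. Values were taken as log2(TPM + 1), so that changes of low genes are understated. limma 3.58.1 in R 4.3.3 (lmFit, then eBayes with a trend) fitted the 4 groups, with 4 residual degrees of freedom, and 2-sided tests were adjusted by Benjamini-Hochberg over all 15615 genes at 0.05. On simulated data with 200 changed genes for this comparison over 15615 genes, 48 of 100 changes of 1 log2 unit and 88 of 100 changes of 2 units were recovered, and 8 of 144 calls were false. The simulated noise was independent, equal in all 4 groups and shuffled over genes. The real groups differ in spread and single libraries shift many genes, so the false share in these data is not measured by it. The 144 h line difference was fitted on its own 4 libraries.

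The members and lists were chosen with earlier results of these data known. Genes were named by a rule: the 12 largest called differences in each direction and the 4 largest in each class and direction, with a group mean of at least 5 TPM, separate changes in all library pairs and no predicted or pseudogene type, together with the called members of a list where it is described. Genes chosen after their values were seen are said to be so. Promoters and upstream sequences are from RefSeq (GRCm38.p6), for 9616 of the 15615 genes, taking starts within 5000 bases of the gene's 5′ end.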

Additional observations from a re-analysis of the deposited data

Results flagged for a closer look

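The test of the difference between lines in the 72 h response itself marked 286 genes, described above. The 12 higher genes that the naming rule took were Peg10 (2.30 on the log2 scale), Tsx (2.21), Wt1 (2.00), Zscan4f (1.84), Stra8 (1.77), Epha1 (1.76), Ccdc194 (1.76), Cntfr (1.70), Calml4 (1.67), Zfp467 (1.66), Tmem92 (1.66) and Zscan4-ps2 (1.66). The 12 lower genes were Pagr1b (-4.83), Pax6 (-2.02), Tfap2c (-1.95), Trh (-1.76), Naaa (-1.57), Ap3b2 (-1.53), Ldhb (-1.41), Ifitm1 (-1.36), Cpsf4l (-1.35), Gpc3 (-1.35), Fxyd6 (-1.34) and Dppa3 (-1.33). Each of these differences passed limma's test of the interaction. Each also kept its sign without any 1 of the 8 libraries, which choosing large differences from these same libraries made likely. With 2 libraries per group, no single library could be tested as an outlier within its group.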

How the results depend on the processing

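The 286 calls became 127 with a pseudocount of 0.1 TPM (54.3% higher), 447 with no filter (80.5% higher), 107 with a filter of 5 TPM (54.2% higher), 629 with median-ratio scaling (54.8% higher), 652 with the spread of all 12 libraries, 179 at an absolute difference of at least 1, 54 at an adjusted p under 0.01, and 2 to 1814 without 1 library. In the same order the genes that arose, 130 in the main analysis, numbered 61, 266, 51, 316, 319, 65 and 14, and 0 to 549 without 1 library. The line difference at 0 h (752 calls) gave 407 with the 5 TPM filter, 1243 with median-ratio scaling, 1339 with all 12 libraries, 269 with library weights, 242 at the size limit, 325 at the stricter p, and 267 to 4130 without 1 library. The line difference at 72 h (1901 calls) gave 1093 with the 5 TPM filter, 2897 with median-ratio scaling, 5667 with library weights, 395 at the size limit, 687 at the stricter p, and 525 to 3760 without 1 library. Without 1 library the KH response gave 3652 to 8632 calls, the DNMT3ABKO response 5161 to 9355, and the 144 h line difference 2791 to 3034. Median-ratio scaling moved the share of higher calls from 58.5% to 49.5% in the KH response, from 59.6% to 50.5% in the DNMT3ABKO response and from 39.9% to 51.5% at 144 h. Of 81 named or listed genes none changed sign, which their choice among called genes favours. The call was lost for 25 with the 0.1 TPM pseudocount, Nanog, Fgf5, Epcam and Tmem92 among them. It was lost for 2 with median-ratio scaling (Cldn4 and AF067061) and for 1 with all 12 libraries (S100a4). The cause was not tested.

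With the replicate number as a block, 180 genes were called for the difference in response, 312 for the line difference at 0 h and 585 at 72 h, and 83 arose; 24 of the 81 genes lost their call, Nanog, Tcl1, Axin2, Dnmt3l and Epcam among them. The deviations of same-numbered libraries from their group means correlated with r = -0.06 in KH and -0.10 in DNMT3ABKO, which gives no sign of pairing in the values. The study's methods speak of parallel handling of a replicate's time points, so the blocked values stand beside the results they change. A crossed replicate block in DNMT3ABKO, added after the data were seen, gave 226, 460 and 838 calls and 100 that arose. A fit without 1 library leaves a group with 1 sample, which is assumed to vary like the others. With 2 libraries per group and relative TPM, differences of about 1 log2 unit or less could often not be called.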
